A study of Mus musculus with 2 samples.

Results

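The genes described here are 35 genes of Kupffer cells, other macrophages and monocytes, chosen by name from a list and matched by symbol to the gene tables of a fetal mouse liver. All 35 symbols were found among the 43346 mouse genes of the tables. Poly(A)+ RNA longer than 200 nt was sequenced from whole liver at embryonic day 18 (E18) of the mouse strain C57BL/6J. The 2 stranded libraries form 1 group and are labelled as separate biological replicates, 2 and 1. The embryos carried no stated allele or treatment, both libraries name the same donor but different biosamples, and the labels call the tissue mixed-sex littermates. There was no second age, tissue or condition, so the levels were described over both libraries and the libraries were then set against each other, replicate 2 over replicate 1, with 1 library a side and no p-value.

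Kupffer cells are the resident macrophages of the liver sinusoids. Their first wave derives from yolk sac and fetal liver precursors, and in the fetal liver, where red cells mature around macrophages, they also take up expelled red cell nuclei and ageing cells. The transcription factor PU.1 and signalling through the CSF1 receptor are needed for macrophages in general, while a further set of receptors and secreted proteins, with factors such as ID3, marks those of the liver. Monocytes, their circulating relatives, are known by Ly6C and the chemokine receptor CCR2.

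Expected counts, the estimated number of fragments per gene, summed to 139889938 in replicate 2 and 163766625 in replicate 1, and 97.9% and 97.2% of them fell on mouse genes. The tissue label was borne out by hepatocyte markers, all 6 of which were detected, albumin (Alb) at 75756 TPM in replicate 2 and 75317 TPM in replicate 1. TPM is a transcript abundance corrected for gene length and scaled to the same total in each library. The label of pooled sexes was not matched by the libraries: the X-inactivation transcript Xist had 41 counts in replicate 2 and 157187 in replicate 1, and the Y-linked Ddx3y had 6544 counts in replicate 2 and 1 in replicate 1. Sex, library and litter member cannot be told apart in any difference between the libraries. Of the neutrophil markers, 9 of 9 were higher in replicate 2, by 0.37 on the log2 scale at the median, and they summed to 12947 TPM in replicate 2 against 8966 TPM in replicate 1. Counts of higher and lower genes in a list are by TMM, a scaling that centres most genes, and so are relative to the middle of all genes; scaling to spike-in totals turned most small differences to higher in replicate 2. In whole tissue, fewer cells of a type and less RNA per cell cannot be told apart.

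All 35 genes were at 1 TPM or more in both libraries, as were, by mean TPM, 54.7% of the 21474 protein-coding genes. Levels spanned a wide range: 4 genes averaged 100 TPM or more, 15 lay between 10 and 100 TPM and 16 between 1 and 10 TPM. The median gene stood at 11.96 TPM in replicate 2 and 11.83 TPM in replicate 1 (11.9 ± 0.0919, SD, n = 2). The median of the mean levels, 12.3 TPM, lay at percentile 60.8 of the 12557 genes that averaged 1 TPM or more, whose own median was 8.49 TPM. Together the genes made up 0.156% of all TPM in replicate 2 and 0.141% in replicate 1, and the 5 highest held 68.2% and 65.8% of that sum. Their order was much the same in both libraries (Spearman rho 0.98 over 35 genes, a description of 2 libraries of 1 tissue). Of the 34 pairs of neighbours in the order by mean TPM, 12 kept apart in both libraries and 22 overlapped.

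**Figure D1:**
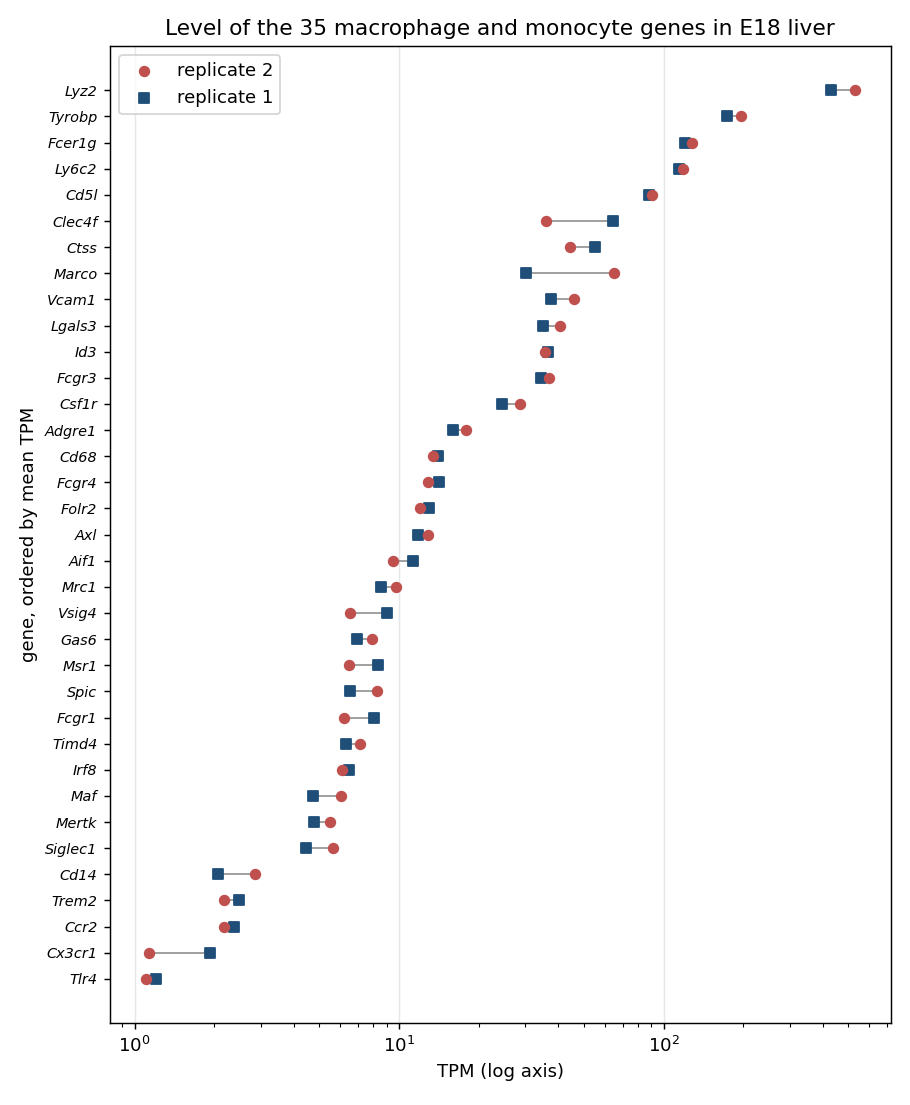
TPM of the 35 genes on a log axis, ordered by mean, with replicate 2 as circles and replicate 1 as squares joined by a line. Most pairs lie close together; the long lines are those of Clec4f, Marco and Cx3cr1.

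Of the genes that mark Kupffer cells, 3 stood above 30 TPM in both libraries. Cd5l (chromosome 3, 87357881 to 87371073), which encodes a protein that macrophages secrete, had 90.5 TPM in replicate 2 and 88.3 TPM in replicate 1. The log2 ratio of its scaled counts, replicate 2 over replicate 1, was -0.07. Clec4f (chromosome 6, 83644542 to 83656187), a C-type lectin that in the mouse is made by Kupffer cells, had 36.0 TPM in replicate 2 and 64.5 TPM in replicate 1. Marco (chromosome 1, 120474538 to 120505024), a scavenger receptor with a collagen-like stalk, had 65.1 TPM in replicate 2 and 30.3 TPM in replicate 1. Clec4f was thus low in the library in which Marco was high.

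The remaining genes of that set were lower. Folr2, a folate receptor of resident macrophages, stood at 11.96 TPM in replicate 2 and 13 TPM in replicate 1. Vsig4 (chromosome X, 96247203 to 96293438), a receptor for complement fragments, had 6.53 TPM in replicate 2 and 9.03 TPM in replicate 1. Timd4, which binds the phosphatidylserine exposed by dying cells and marks long-lived resident macrophages, had 7.13 TPM in replicate 2 and 6.31 TPM in replicate 1. These 3 genes stood well below Cd5l in both libraries.

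Lyz2, the lysozyme of macrophages, monocytes and neutrophils, was the highest of the 35 genes, at 529.8 TPM in replicate 2 and 430.4 TPM in replicate 1 (480.1 ± 70.3, SD, n = 2). It alone held 34.0% of the summed TPM of the genes in replicate 2 and 30.5% in replicate 1. The membrane and lysosomal genes of macrophages lay far below it. Csf1r, the receptor for CSF1 and IL-34, had 28.7 TPM in replicate 2 and 24.6 TPM in replicate 1. Adgre1, the F4/80 antigen, had 17.8 TPM in replicate 2 and 16.0 TPM in replicate 1, and Cd68, a lysosomal glycoprotein, had 13.4 TPM and 14.0 TPM in the same order. Among these general genes the one farthest from 0 in its log2 ratio was Ctss, a protease that trims the invariant chain of MHC class II, at 44.1 TPM in replicate 2 and 55.3 TPM in replicate 1. The lectin gene Lgals3 had 40.5 TPM in replicate 2 and 35.1 TPM in replicate 1, and Aif1, the actin-bundling IBA1, had 9.52 TPM and 11.3 TPM.

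Among the other receptors for uptake and adhesion, Vcam1 had 45.9 TPM in replicate 2 and 37.7 TPM in replicate 1. It is the adhesion molecule by which central macrophages hold erythroblasts, and endothelial cells make it too. The mannose receptor gene Mrc1 had 9.72 TPM in replicate 2 and 8.58 TPM in replicate 1. Scavenger receptor A (Msr1) had 6.48 TPM and 8.34 TPM, and the sialic-acid-binding Siglec1 had 5.63 TPM and 4.46 TPM, replicate 2 before replicate 1. Endothelium is a second source of Mrc1, Vcam1, Maf and Id3. Of 8 sinusoidal endothelial markers, all detected, 4 were higher and 4 lower in replicate 2, and their sum was 137 TPM in replicate 2 and 130 TPM in replicate 1. Their part in the levels of these genes was not tested.

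Among the transcription regulators, Id3, which restrains E proteins and is needed for normal Kupffer cells, had 35.7 TPM in replicate 2 and 36.6 TPM in replicate 1. Spic, an ETS factor of red pulp and other iron-handling macrophages, had 8.28 TPM in replicate 2 and 6.53 TPM in replicate 1. Irf8 had 6.11 TPM and 6.49 TPM, and Maf 6.01 TPM and 4.71 TPM. Of 14 factors tied to Kupffer cell identity, these 4 included, 14 were detected, 8 were higher and 6 lower in replicate 2, and none lay beyond 1.5-fold. Spi1, which encodes PU.1, had 41.7 TPM in replicate 2 and 33.8 TPM in replicate 1. Cebpa, which hepatocytes also express, was the highest of the 14, at 103.6 TPM in replicate 2 and 81.0 TPM in replicate 1. Csf1 had 5.88 TPM in replicate 2 and 4.63 TPM in replicate 1, and Il34, the other ligand of the CSF1 receptor, was below 1 TPM in both, at 0.29 and 0.17 TPM.

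The receptors that recognise dying cells through the bridging protein GAS6 kept close to the same proportions in both libraries. Axl had 12.9 TPM in replicate 2 and 11.8 TPM in replicate 1, Mertk 5.47 and 4.76 TPM, and their ligand Gas6 7.89 and 6.96 TPM. The ratio of Mertk to Axl was 0.425 in replicate 2 and 0.402 in replicate 1. Of 10 receptors for dying cells and their ligands, 9 were detected; Mfge8, which bridges phosphatidylserine to integrins, was the highest at 40.8 TPM in replicate 2 and 39.4 TPM in replicate 1.

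In TPM, the adaptors that carry activating signals stood above the receptors that use them, by a factor that depended on the table. Tyrobp (DAP12) had 195.5 TPM in replicate 2 and 173.7 TPM in replicate 1, and Fcer1g, the common gamma chain of the Fc receptors, had 128.7 TPM and 120.4 TPM. Of the IgG receptors, Fcgr3 had 37.0 TPM in replicate 2 and 34.5 TPM in replicate 1, Fcgr4 12.9 and 14.1 TPM, and the high-affinity Fcgr1 6.17 and 8.05 TPM. Fcer1g was at 3.48 times the TPM of Fcgr3 in replicate 2 and 3.49 times in replicate 1, whereas Fcgr3 was at 6.00 times that of Fcgr1 in replicate 2 and 4.29 times in replicate 1. Trem2, a lipid receptor that signals through DAP12, was near the bottom of the order, at 2.17 TPM in replicate 2 and 2.48 TPM in replicate 1, so that Tyrobp was at 90.1 times and 70.1 times its TPM. On mm9, in RPKM averaged over the libraries, Fcer1g was at 1.53 times Fcgr3 and Tyrobp at 30.1 times Trem2. Tyrobp and Fcer1g are also expressed by neutrophils and other myeloid cells, whose part in these levels was not tested. Fcgr4, Fcgr3 and Fcer1g lie together on chromosome 1, between 171018920 and 171234365.

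The monocyte genes differed widely in level. Ly6c2 had 118.2 TPM in replicate 2 and 114.5 TPM in replicate 1, Ccr2 2.18 and 2.37 TPM, and the fractalkine receptor Cx3cr1 (chromosome 9, 119901616 to 120069879) 1.13 and 1.92 TPM. The part of cells other than monocytes in the level of Ly6c2 was not tested. Cx3cr1 is a gene of macrophage precursors and patrolling monocytes that adult Kupffer cells have shut off. The endotoxin co-receptor Cd14 had 2.85 TPM in replicate 2 and 2.06 TPM in replicate 1, and its partner Tlr4, the lowest of the 35 by mean, 1.1 and 1.2 TPM. Of the windows of a read's length in the leading Ly6c2 transcript, 15.5% occur also in Ly6c1, so reads there could be assigned to either. Ly6c1 itself was given 0.61 TPM in replicate 2 and 0.74 TPM in replicate 1. Such shared windows came to 3.37% for Fcgr3 (with Fcgr2b) and 1.81% for Lyz2 (with Lyz1). Clec4f and Marco had none.

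Set against each other, the libraries gave nearly the same levels for most of the genes, and opposite differences for Clec4f and Marco. By TMM, 16 genes were higher and 19 lower in replicate 2, as were 50.2% and 49.8% of the genes tested. Their median log2 ratio was -0.03, beside 0.00 for the 17616 genes tested, those averaging 10 counts or more. Of the 35 genes, 27 lay within 0.3 of 0 on the log2 scale, as did 73.2% of the genes tested. Beyond 1.5-fold lay 1 gene that was higher, Marco, and 2 that were lower in replicate 2, Clec4f and Cx3cr1. Of the genes tested, 10.7% lay beyond 1.5-fold, 3.67% higher and 7.07% lower, so the share of the 35 was near the background. That background held many genes with few counts: at a mean of 1000 counts or more, 2.17% of 9918 genes lay beyond 1.5-fold, 0.585% higher and 1.58% lower. Scaled to spike-in totals instead, the median of all genes stood at 0.53 and 32 of the 35 were higher in replicate 2, 14 of them beyond 1.5-fold; relative to that shift, the same 3 genes lay beyond 1.5-fold. At 1000 counts or more, 29 of the 35 were kept and 2 of them lay beyond 1.5-fold, Clec4f and Marco.

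Clec4f had 7500 counts in replicate 2 and 17470 in replicate 1. The log2 ratio was -1.05 (95% interval -1.09 to -1.01, for counting error only), which is 2.07-fold lower in replicate 2. Of the 9918 genes with 1000 counts or more, 45 (0.454%) were as low or lower. The ratio of Clec4f was below 0, and that of Marco above 0, under all 11 settings tried. Several of these (count filters, unrounded counts, a larger added count, DESeq2 size factors) barely alter a gene's ratio, so their agreement adds little. Spike-in totals moved the ratios farthest, to -0.52 for Clec4f and 1.54 for Marco. Marco had 14120 counts in replicate 2 and 7894 in replicate 1, a log2 ratio of 1.01 (0.97 to 1.05), or 2.01-fold higher in replicate 2, and 16 genes (0.161%) were as high or higher. In TPM on mm10 the 2 genes exchanged places. Marco stood at rank 6 and Clec4f at rank 11 of the 35 in replicate 2, and Marco at rank 12 and Clec4f at rank 6 in replicate 1. Beyond 2-fold lay these 2 genes alone of the 35, against 4.35% of the genes tested, 1.22% higher and 3.13% lower. Clec4f was inside 2-fold on deposited TPM (log2 ratio -0.84), on FPKM (-0.88) and on spike-in totals (-0.52, also inside 1.5-fold). At 1000 counts or more, 0.696% of genes lay beyond 2-fold, 0.161% higher and 0.534% lower.

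**Figure D2:**
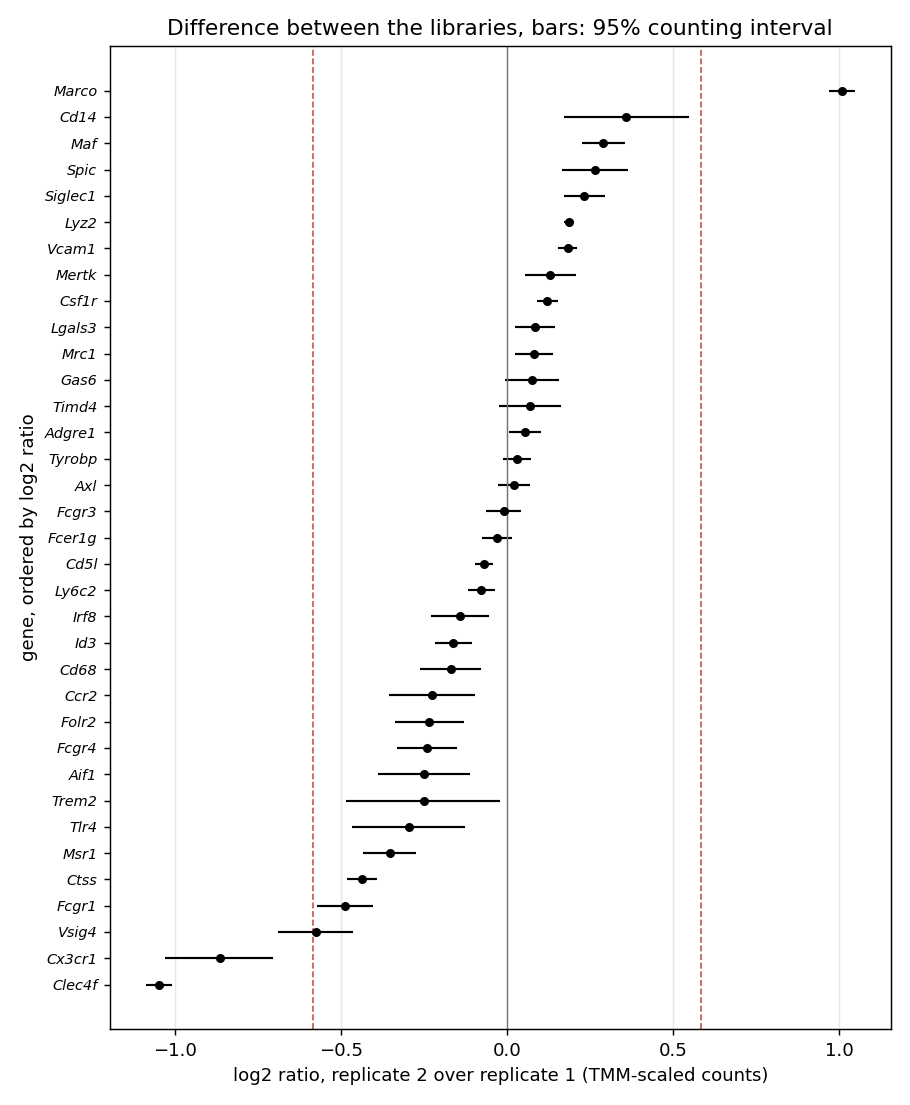
Log2 ratio of replicate 2 over replicate 1 for each of the 35 genes on TMM-scaled counts, with 95% intervals for counting error and dashed lines at 1.5-fold. Marco lies above 1.5-fold and Clec4f and Cx3cr1 below, with Vsig4 just inside the lower line.

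Cx3cr1 had 465 counts in replicate 2 and 954 in replicate 1, with a log2 ratio of -0.87 (-1.03 to -0.71). Just inside 1.5-fold was Vsig4, with 1012 counts in replicate 2, 1698 in replicate 1 and a log2 ratio of -0.58 (-0.69 to -0.46). Next in that direction came Fcgr1 at -0.49, Ctss at -0.44 and Msr1 at -0.35. In the other direction the nearest to Marco was Cd14, at 0.36 (495 counts in replicate 2, 434 in replicate 1), followed by Maf at 0.29 and Spic at 0.26. The counting interval left out 0 for 29 of the 35 genes, 12 above and 17 below, but counting error does not cover the spread between animals. The same share over all genes tested was not computed, so this count cannot be called particular to the 35 genes. Markers of other cells also differed between the libraries, in either direction. Of 6 erythroid markers, 5 were lower and 1 higher in replicate 2 by TMM (all 6 higher on spike-in totals). Of 6 hepatocyte markers, 4 were lower and 2 higher by TMM (5 higher on spike-in totals). Among 8 stellate cell and fibroblast markers, 5 were higher and 3 lower by TMM (all 8 higher on spike-in totals). Of 9 dendritic cell markers with enough counts, 6 were lower in replicate 2 and 3 higher by TMM (8 higher on spike-in totals), their sum being 27.5 TPM in replicate 2 and 31.9 TPM in replicate 1. All 6 B cell markers were lower by TMM (4 of them higher on spike-in totals), with a sum of 113 TPM in replicate 2 and 146 TPM in replicate 1. Of these B cell markers, 2 lay beyond 1.5-fold. In that direction lay 7.07% of all genes tested, and 1.58% of those with 1000 counts or more. Of 5 T and natural killer cell markers with enough counts, 4 were lower and 1 higher by TMM (2 higher on spike-in totals). Their median log2 ratio was -0.76, and 3 lay beyond 1.5-fold, all lower, as did 7.07% of all genes tested. Except for Gzma (430 counts in replicate 2, 957 in replicate 1), they had only 11 to 158 counts a library, where large ratios are common. The T and natural killer cell markers summed to 6.32 TPM in replicate 2 and 10.9 TPM in replicate 1. Of this Gzma held 5.1 and 9.28 TPM, and Cd3e was at 0 in replicate 2. Of 5 mast cell and basophil markers, 4 were lower and 1 higher by TMM (4 higher on spike-in totals), at a median of -0.45, while the sum was 123 TPM in replicate 2 and 84.3 TPM in replicate 1, most of it Prg2. The part of these cells in the differences of Cx3cr1, Ctss, Fcgr1 and Irf8 was not tested, nor was that of neutrophils in those of Lyz2 and Cd14.

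The genes were also set over a general macrophage gene of the same library. The divisors differed little between the libraries (log2 ratio of TPM 0.16 for Adgre1, 0.22 for Csf1r and -0.07 for Cd68). A shared divisor also leaves the ratio of Clec4f to Marco as it was. Their opposite differences could therefore not be lost, and the values below describe proportions and are no check. Per Adgre1, Clec4f stood at 2.02 in replicate 2 and 4.03 in replicate 1, and Marco at 3.65 in replicate 2 and 1.89 in replicate 1. Per Csf1r, Clec4f stood at 1.25 and 2.62, and Marco at 2.27 and 1.23, again with replicate 2 before replicate 1. Per Cd68, Clec4f stood at 2.68 in replicate 2 and 4.59 in replicate 1, and Marco at 4.86 and 2.16. The direct ratio of Clec4f to Marco was 0.553 in replicate 2 and 2.13 in replicate 1, 3.85 times apart. On mm9, in RPKM averaged over the libraries, Clec4f was at 2.15 times Marco, whereas their mean TPM on mm10 was 50.2 and 47.7. By mean over the libraries Clec4f was thus the higher of the 2 on both builds, by a factor that depended on the table. Their order within a library could not be read on mm9. By contrast, Cd5l per Adgre1 was 5.07 in replicate 2 and 5.52 in replicate 1, and Timd4 per Adgre1 was 0.400 and 0.394. The genes labelled Kupffer cell markers thus did not share 1 difference: 2 of the 6 were higher and 4 lower in replicate 2 by TMM. Cd5l and Folr2 turned higher on spike-in totals, and Cd5l also on deposited TPM (log2 ratio 0.036). The summed level of the 6 genes was 217 TPM in replicate 2 and 211 TPM in replicate 1.

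**Figure D3:**
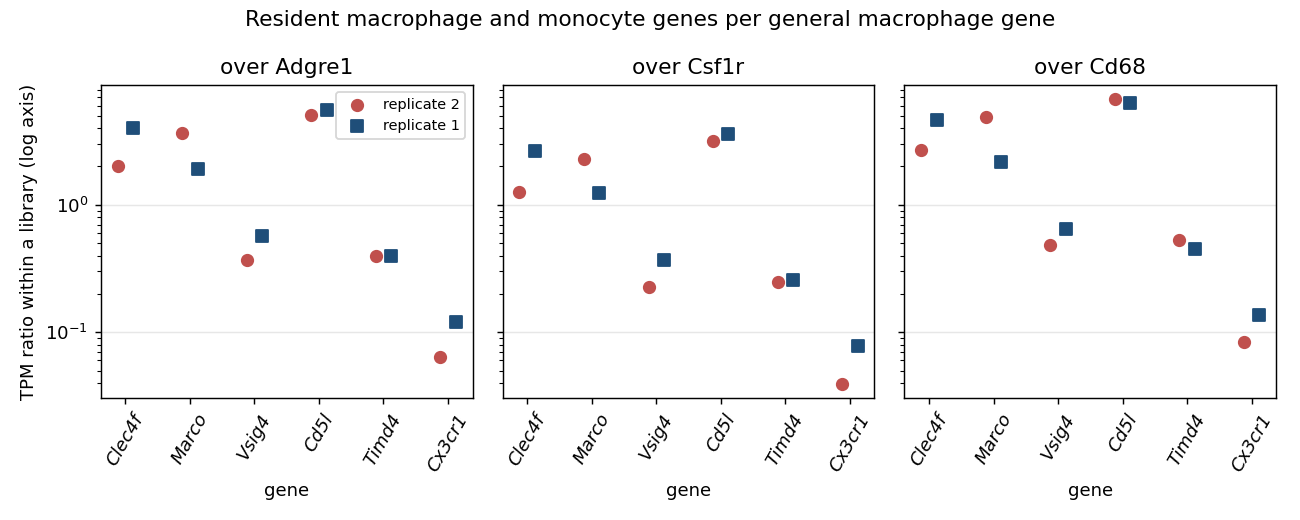
TPM of 6 genes divided by that of Adgre1, Csf1r or Cd68 in the same library, on a log axis, with replicate 2 as circles left of replicate 1 as squares. In each panel Clec4f is lower and Marco higher in replicate 2 than in replicate 1, while Cd5l and Timd4 nearly coincide.

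Of the other genes of the same functions, few lay beyond 1.5-fold. The 3 chains of C1q, the complement component that macrophages supply, were all lower in replicate 2 by TMM, at a median log2 ratio of -0.20, but all 3 were higher on spike-in totals. They summed to 384 TPM in replicate 2 and 414 TPM in replicate 1. C1qb, the highest chain, had 170.7 TPM in replicate 2 and 181.2 TPM in replicate 1. Of 11 scavenger receptors, 7 were higher and 4 lower, and only Marco lay beyond 1.5-fold; the endothelial Stab1 had 34.5 TPM in replicate 2 and 25.2 TPM in replicate 1. Of 15 monocyte genes, 9 were higher and 6 lower by TMM (12 higher on spike-in totals), and 3 lay beyond 1.5-fold, all lower in replicate 2, as did 7.07% of all genes tested in that direction. These were Cx3cr1 and, named after their values were seen, Ms4a4c (151 counts in replicate 2, 384 in replicate 1) and S100a4 (126 and 258 counts). Chil3, a chitinase-like protein of monocytes and neutrophil precursors, had 73.3 TPM in replicate 2 and 53.3 TPM in replicate 1. Of 6 Fc receptor genes, 1 was higher and 5 were lower by TMM (all 6 higher on spike-in totals), and the neonatal receptor Fcgrt, which recycles IgG, had 56.99 TPM in replicate 2 and 60.3 TPM in replicate 1. Of 9 genes of ITAM adaptors and their partners, 6 were higher and 3 lower, with none beyond 1.5-fold; the kinase gene Syk had 6.82 TPM in replicate 2 and 6.1 TPM in replicate 1. Ccl2, the main ligand of CCR2, had 3.43 TPM in replicate 2 and 2.83 TPM in replicate 1. Of the 5 chemokine ligands in its list, 1 lay beyond 1.5-fold, Ccl8, named after its values were seen, with 4 counts in replicate 2 and 21 in replicate 1. Of 14 toll-like receptor pathway genes, 7 were higher and 7 lower, and of 12 erythroblast island genes 8 were higher and 4 lower, none of either beyond 1.5-fold.

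The leading transcript of each gene was the same in both libraries. The tables hold 1 transcript for 10 of the 35 genes and 2 or more for 25, and the transcript with the largest share of the gene's TPM was the same in both libraries for 25 of 25. Over the whole table, it was the same for 8360 of the 8911 multi-transcript genes that reached 1 TPM, as all 25 did, or 93.8%. The leader held 90% or more in both libraries for 9 genes. It held under 70% in both libraries for 6, which were Maf, Ccr2, Mrc1, Trem2, Msr1 and Cx3cr1. The coding Clec4f-201 held 66.1% of Clec4f in replicate 2 and 72.5% in replicate 1, and the non-coding Clec4f-202 the remainder. Clec4f-201 was at 23.8 TPM in replicate 2 and 46.7 TPM in replicate 1, and Clec4f-202 at 12.2 and 17.8 TPM, so both transcripts were lower in replicate 2.

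Several genes kept the same split between transcripts in both libraries. Mrc1-202, a retained-intron form, held 37.8% of Mrc1 in replicate 2 and 38.1% in replicate 1, and Cx3cr1-202 held 55.8% and 55.5% of Cx3cr1. Others shifted: 6 leaders differed by more than 5 percentage points between the libraries. The share of all genes with such a shift was not computed. Trem2-201 held 68.0% in replicate 2 and 53.7% in replicate 1, the widest shift at 14.2 points, on 271 and 363 counts of the gene. For Aif1, a retained-intron form held 3.1% in replicate 2 and 15.8% in replicate 1, on 741 and 991 counts of the gene. For Msr1, the longer Msr1-202 held 62.5% in replicate 2 and 53.4% in replicate 1, and the shorter Msr1-201 held 37.5% and 46.7%. Shares are estimates from fragments that transcripts of a gene have in common, so their error is wider than counts give.

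**Figure D4:**
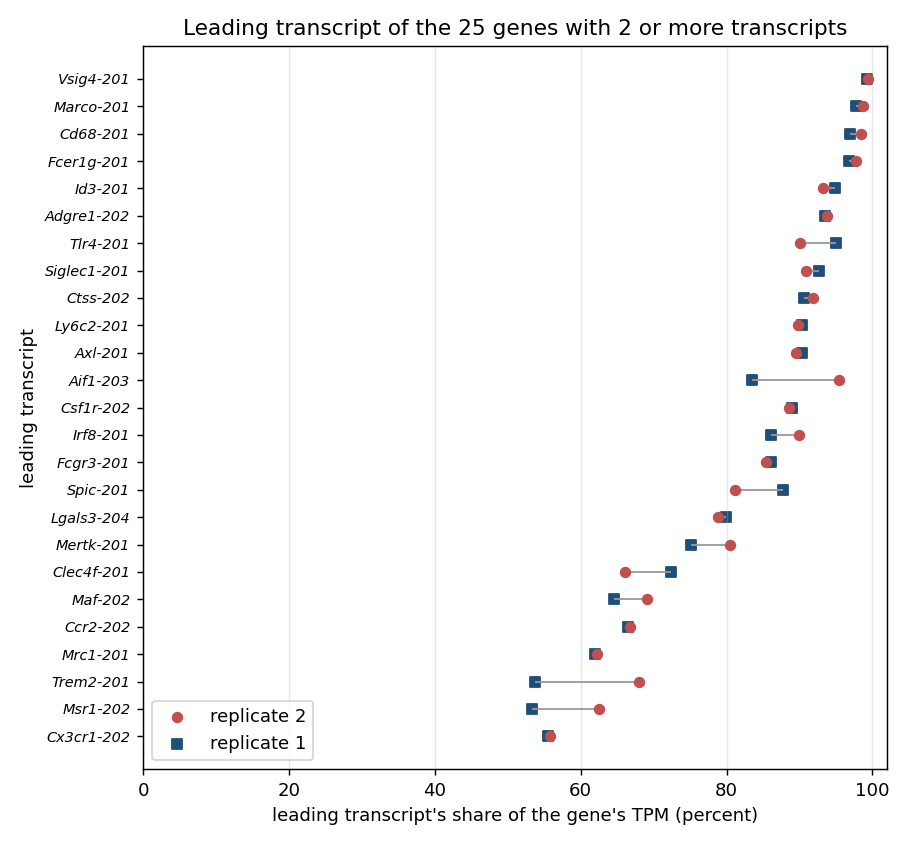
Share of the gene's TPM held by its leading transcript, in percent, for the 25 genes with 2 or more transcripts, with replicate 2 as circles and replicate 1 as squares. Most pairs nearly coincide; Trem2, Aif1 and Msr1 have the longest lines.

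A junction list on the older build mm9, with the reads of both libraries summed, covered all 35 genes. Summed reads ran from 53765 for Lyz2 and 37548 for Marco to 86 for Cd14. For Vcam1, the intron from 115823992 to 115827300 on chromosome 3 had 1913 reads, and an intron with the same end that began at 115826712 had 385. The shorter intron made up 16.8% of the reads at that end (Wilson 95% interval 15.3 to 18.3, for counting error only), although the mm10 tables hold 1 Vcam1 transcript. For Timd4, also with 1 transcript there, 50 reads joined 46633547 to 46652762 on chromosome 11 past an exon that other reads included, 13.9% of those at the shared start. For Lgals3, 660 reads used an intron from 47993628 to 47999197 on chromosome 14, against 1014 for one from 47993655 to the same end, a share of 39.4% (37.1 to 41.8).

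The mm9 gene table, with RPKM (read density per kilobase and sequencing depth) averaged over its pair of values, placed the genes in nearly the same order (Spearman rho 0.92 over 35 genes that share reads with the mm10 tables). After centring on the 12186 genes compared, 31 of 35 lay within 2-fold. The share of all genes compared that lay within 2-fold was not computed, so whether 31 of 35 is unusual is not known. Tyrobp was higher in the mm10 tables by 2.01 on the log2 scale, Fcer1g by 1.53 and Marco by 1.2, while Irf8 stood at -1.70. Tyrobp and Fcer1g are short, with effective lengths of 339 and 447 nt in replicate 2. The place of these 4 genes in the order of levels thus depends on the table, and Irf8 stood at rank 15 on mm9 and rank 27 on mm10.

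**Figure D5:**
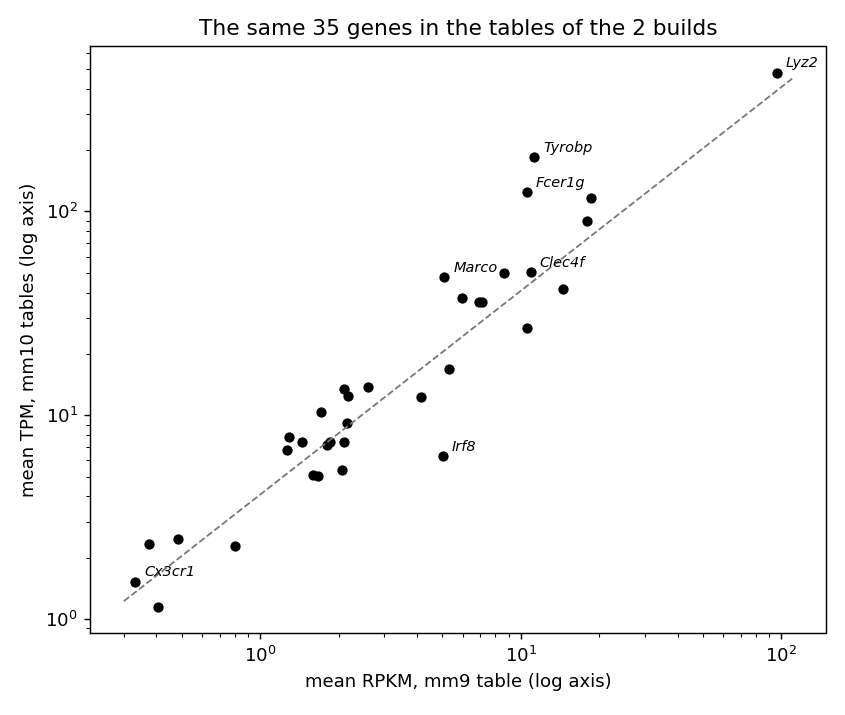
Mean TPM from the mm10 tables against mean RPKM from the mm9 table for the 35 genes, both on log axes, with the dashed line at the median ratio of all genes compared. Tyrobp, Fcer1g and Marco lie above the line and Irf8 below it by more than 2-fold.

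The promoters of the genes were read from RefSeq (GRCm38.p6), as 300 bases from 250 before to 50 after the start, for the 26 genes with an entry. They are given because a purine-rich word with a GAGGAA core is the known binding word of PU.1. GAGGAA, searched on both strands (its reverse is TTCCTC), occurred in the promoters of 14 of the 26 genes (53.8%), against 31.3% of 27025 genes in the whole table. The longer AGAGGAAG (reverse CTTCCTCT), which contains GAGGAA, occurred in 7 of the 26 (26.9%), against 5.22% of all genes. Those 7 were Cd5l, Fcgr1, Fcgr3, Fcgr4, Ly6c2, Marco and Mrc1. GGGGAAGT occurred in 1 of the 26, against 1.72% of all genes, and GAGGAAGT, which also contains GAGGAA, in 3, against 3.69%. A match describes letters and shows no binding. The promoters of the 2 genes that differed most between the libraries are shown with those of 3 genes that hold the long word before the start, 5′ to 3′ on the gene's strand, with GAGGAA or TTCCTC in capitals.
Clec4f: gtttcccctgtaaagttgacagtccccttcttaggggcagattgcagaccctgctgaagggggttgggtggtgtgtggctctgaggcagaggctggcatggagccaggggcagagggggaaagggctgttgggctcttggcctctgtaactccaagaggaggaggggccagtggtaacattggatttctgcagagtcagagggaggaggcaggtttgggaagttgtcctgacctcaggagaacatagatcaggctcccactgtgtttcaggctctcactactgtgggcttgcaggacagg
Marco: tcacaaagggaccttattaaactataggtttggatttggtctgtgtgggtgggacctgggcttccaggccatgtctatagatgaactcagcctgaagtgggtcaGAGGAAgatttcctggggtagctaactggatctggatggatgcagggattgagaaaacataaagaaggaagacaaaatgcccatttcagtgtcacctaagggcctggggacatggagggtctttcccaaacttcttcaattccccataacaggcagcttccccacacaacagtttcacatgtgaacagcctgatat
Cd5l: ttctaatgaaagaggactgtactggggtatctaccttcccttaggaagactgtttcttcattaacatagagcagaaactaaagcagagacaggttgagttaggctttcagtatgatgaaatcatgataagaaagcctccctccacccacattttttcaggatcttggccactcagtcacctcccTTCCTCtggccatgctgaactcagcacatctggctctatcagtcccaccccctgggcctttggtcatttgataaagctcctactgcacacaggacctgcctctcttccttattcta
Fcgr1: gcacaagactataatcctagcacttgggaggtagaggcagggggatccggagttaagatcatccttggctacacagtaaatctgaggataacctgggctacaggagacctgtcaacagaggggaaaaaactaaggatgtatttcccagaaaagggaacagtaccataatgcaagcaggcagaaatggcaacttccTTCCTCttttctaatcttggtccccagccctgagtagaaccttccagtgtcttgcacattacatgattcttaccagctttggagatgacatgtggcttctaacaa
Fcgr4: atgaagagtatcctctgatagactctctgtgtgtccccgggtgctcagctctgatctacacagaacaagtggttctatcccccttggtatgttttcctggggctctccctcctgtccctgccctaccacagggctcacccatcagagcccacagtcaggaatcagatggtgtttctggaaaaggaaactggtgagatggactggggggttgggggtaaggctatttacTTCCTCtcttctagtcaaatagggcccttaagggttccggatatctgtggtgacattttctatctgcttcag
The windows are chr6:83656067-83656366 for Clec4f, chr1:120504975-120505274 for Marco and chr3:96293920-96294219 for Fcgr1, all on the minus strand, and chr3:87357631-87357930 for Cd5l and chr1:171018676-171018975 for Fcgr4, on the plus strand. The Clec4f window holds neither word, and that of Marco holds the long word 147 bases before the start, on the gene's strand. In Cd5l, Fcgr1 and Fcgr4 the long word lies on the opposite strand, 67, 56 and 23 bases before the start.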

How the data were processed

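The 2 libraries of the group were read from tables that the authors made per library on mm10 with GENCODE M4, per the file headers and the notes deposited with each sample. The authors' tables give expected counts (estimated fragments per gene), TPM (length-corrected abundance, with spike-ins in the total), FPKM, and the percent of a gene's TPM held by each transcript. The deposited mm9 tables give 2 RPKM values per gene (ENSEMBL 65) and read counts per splice junction for both replicates; they do not name the library of each value, so only means or sums were used. The aligner, the quantifier and any use of strand in counting: not given in the sources used here. Opposite-strand genes overlap exons of Csf1r, Gas6, Folr2, Maf, Cx3cr1 and Vcam1, whose values are uncertain to that extent.

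Expected counts were rounded and scaled by TMM (edgeR 4.0.16, R 4.3.3). The log2 ratio of replicate 2 over replicate 1 used scaled counts with 0.5 added, over genes with a mean of at least 10 counts, with exact binomial 95% intervals for counting error only. With 1 library a side edgeR's test could not be fitted, and no p-value was computed. The scaling and ratio steps were tested on simulated counts. These held changes larger than 2-fold and no spread between animals, so they cover the arithmetic and not differences near 1.5-fold or 2-fold. DESeq2 1.42.0 size factors, other scalings, filters and units were tried as alternatives. All genes were matched by symbol through GENCODE M21, and coordinates are 1-based. The genes, gene lists and thresholds were chosen with earlier results of these data known. Every one of the 35 genes is named, with up to 4 of the highest others of each pathway list and up to 2 of each marker list. Others were chosen after their values were seen. Most are marked so where they are named, while Xist, Ddx3y, Ly6c1, Lyz1 and Cd3e are marked only here. No column of another sample was used.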

Additional observations from a re-analysis of the deposited data

How the results depend on the processing

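All 35 genes stayed at the detection level at 0.5 TPM, by FPKM and in each library alone, while 30 reached 5 TPM and 30 reached 1 RPKM on mm9. The median level was 11.5 in FPKM, 2.18 in mm9 RPKM, 12.7 TPM with TPM rescaled over mouse genes only, and 11.83 to 11.96 TPM with 1 library left out. The median log2 ratio was 0.10 on deposited TPM, 0.056 on FPKM and 0.50 on spike-in totals. These followed the median of all genes, which was 0.11, 0.06 and 0.53 under the same scalings. On spike-in totals 14 genes lay beyond 1.5-fold, all higher in replicate 2, against 1 higher and 2 lower by TMM; relative to the shift of all genes the count was again 1 higher and 2 lower, the same 3 genes. Over the 11 settings of the ratio, 15 genes were higher in replicate 2 in all, 3 lower in all (Clec4f, Cx3cr1 and Vsig4) and 17 changed sign, 12 of them on spike-in totals only. Clec4f ranged between -1.05 and -0.52 and Marco between 1.01 and 1.54. Of the ratios of single genes under alternatives, 249 stayed within the counting interval and the others moved out of it. Removing the trend with gene length, an alternative chosen after seeing the data like the use of unrounded counts, left 3 genes beyond 1.5-fold. With genes of at least 10 TPM, 13 were compared for the leading transcript, all 13 with the same one. The promoter words AGAGGAAG, GGGGAAGT and GAGGAAGT gave 7, 1 and 3 genes, in place of 14. Ratios from the mm9 tables were not run, since those tables do not name the library of each value. No paired analysis was possible because there is only 1 group. Depth limits the genes under about 1000 counts, such as Trem2, Cd14, Tlr4 and Cx3cr1.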

Other observations

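The lysosomal and iron-handling genes of macrophages ranged widely in level, and by TMM none lay beyond 1.5-fold between the libraries. Of 12 lysosome genes of macrophages, 3 were higher and 9 lower in replicate 2 by TMM (all 12 higher on spike-in totals), with a sum of 1104 TPM in replicate 2 and 1117 TPM in replicate 1. The cathepsin genes Ctsd and Ctsb had 260.7 and 147.6 TPM in replicate 2, and 289.7 and 152.4 TPM in replicate 1. Of 11 genes of iron recycling, 5 were higher and 6 lower by TMM (all 11 higher on spike-in totals). Hmox1, which breaks down haem, had 115.9 TPM in replicate 2 and 110.4 TPM in replicate 1, and the iron exporter Slc40a1 had 72.9 TPM and 71.1 TPM; both were named after their values were seen. Hepatocytes and erythroid cells also express several of these genes, and their part was not tested. Cd163, the haemoglobin scavenger receptor of many adult macrophages and named here after its value was seen, was below 1 TPM, at 0.33 TPM in replicate 2 and 0.31 TPM in replicate 1.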
